A study of Mus musculus with 4 samples.

Results

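The linker histone H1 genes Hist1h1a, Hist1h1b, Hist1h1c, Hist1h1d, Hist1h1e and H1f0 were followed in the hippocampus of Atp6ap2 conditional mutant and wild-type mice. They were taken by symbol, 6 genes of 23466 in the table, and each had 1 transcript record (NM_030609, NM_020034, NM_015786, NM_145713, NM_015787 and NM_008197 in the order above). The family was selected on the mutant and wild-type values of Hist1h1e and Hist1h1c, which were among the genes with the smallest p-values in an earlier look at these data. The mutant and wild-type values of all 6 genes are therefore given as a description, without a test.

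Ribosome-depleted total RNA was sequenced from frozen hippocampus at postnatal day 30. Mutants 38 and 39 were labelled conditional het with the genotype Atp6ap2Camk2aCre/0, and wild-types 11 and 73 were labelled wt, all on the C57BL/6N strain. The labels of the mutants disagree, since their titles read ko, and Atp6ap2 is an X-linked gene. Camk2a drives Cre in forebrain excitatory neurons, so glia, vessels and interneurons of the tissue should keep the gene. The labels do not say which alleles the wild-types carried or whether each library was a separate animal, so spreads are those between libraries.

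Linker histones bind the DNA that enters and leaves the nucleosome and help to fold the chromatin fibre. The 5 genes of the Hist1 cluster, Hist1h1a (now H1f1), Hist1h1b (H1f5), Hist1h1c (H1f2), Hist1h1d (H1f3) and Hist1h1e (H1f4), encode the somatic variants H1.1, H1.5, H1.2, H1.3 and H1.4 and are transcribed chiefly in S phase. Their messages typically end in a stem-loop in place of a poly(A) tail, and removal of ribosomal RNA keeps such messages in a library. H1f0 stands apart on another chromosome, has a polyadenylated message, and encodes the replacement variant H1.0, which builds up in cells that have left the cell cycle.

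The proximal promoters of the 6 genes are shown because they separate the genes by sequence, independently of the measured values. All 6 genes were matched in RefSeq (build GRCm38.p6, while the authors' table was made on mm9). The 130 bases before each transcription start are written 5′ to 3′ on the gene's strand. Capitals mark ACAAACACA, which holds the H1 box AAACACA, then ACCAATCA, which holds a CCAAT box, then the TATA-type element TATAAA.
Hist1h1e (chr13:23622559-23622688, minus strand): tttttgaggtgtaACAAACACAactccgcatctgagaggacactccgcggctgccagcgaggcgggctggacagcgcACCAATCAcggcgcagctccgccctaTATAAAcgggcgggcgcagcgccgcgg
Hist1h1c (chr13:23738677-23738806, plus strand): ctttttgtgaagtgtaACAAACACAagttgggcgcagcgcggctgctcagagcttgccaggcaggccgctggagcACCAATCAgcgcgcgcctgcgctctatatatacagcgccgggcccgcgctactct
Hist1h1d (chr13:23554902-23555031, plus strand): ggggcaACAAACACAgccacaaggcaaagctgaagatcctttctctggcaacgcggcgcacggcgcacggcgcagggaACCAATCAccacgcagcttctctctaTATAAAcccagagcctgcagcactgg
Hist1h1b (chr13:21780626-21780755, minus strand): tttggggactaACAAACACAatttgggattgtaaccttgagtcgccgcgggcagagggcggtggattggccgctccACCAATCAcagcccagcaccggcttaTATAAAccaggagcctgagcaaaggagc
Hist1h1a (chr13:23763538-23763667, plus strand): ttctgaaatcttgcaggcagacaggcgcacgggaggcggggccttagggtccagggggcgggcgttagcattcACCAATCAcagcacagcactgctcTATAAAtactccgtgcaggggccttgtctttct
H1f0 (chr15:79028082-79028211, plus strand): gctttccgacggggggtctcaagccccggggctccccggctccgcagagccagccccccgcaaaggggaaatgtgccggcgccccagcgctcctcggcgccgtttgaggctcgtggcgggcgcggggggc

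ACAAACACA was present in the promoters of Hist1h1b, Hist1h1c, Hist1h1d and Hist1h1e, with its first base 119, 114, 124 and 117 bases before the start in that order. It was not found for Hist1h1a or H1f0 in a window from 250 bases before to 50 bases after the start. Of 32851 RefSeq promoter windows of 300 bases, 0.737% held it on either strand. The shorter H1 box AAACACA was in 7.18% of them, and among the members in the same 4 genes. ACCAATCA began between 52 and 57 bases before the start in all 5 clustered genes, against 2.13% of all windows. The shorter CCAAT was in the same 5 genes, against 37.4% of all windows. TATAAA was present in Hist1h1a, Hist1h1b, Hist1h1d and Hist1h1e, against 13.6% of all windows, and none of the 3 motifs was found for H1f0. Hist1h1c lacked TATAAA but held the shorter TATA, with first bases 31, 29 and 27 bases before the start. TATA was present in all 5 clustered genes, against 36.7% of all windows. Both strands were searched. The 3 motifs in capitals were chosen after the promoters had been read and do not overlap one another, and all motifs are matches of letters only.

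Within the coding sequences, Hist1h1c was 87.2% identical to Hist1h1d and 83.7% to Hist1h1e, and Hist1h1d was 84.8% identical to Hist1h1e. Hist1h1a had 75.1% to 76.6% identity with the other clustered genes, and H1f0 had 64.6% to 71.2% with the 5 clustered genes. A read of 42 bases, the length seen in these libraries, does not always separate the close members. Of the 42-base windows of the coding sequence (GENCODE M21 transcripts), 24.4% in Hist1h1c, 30.1% in Hist1h1d and 27.8% in Hist1h1e also occurred in another member's transcript. The share was 0.955% for Hist1h1b and 0 for Hist1h1a and H1f0. How the authors assigned such reads is not given in the sources used here, so Hist1h1c, Hist1h1d and Hist1h1e are uncertain one by one, while Hist1h1a and H1f0 had no coding window in common with another gene. Windows outside the coding sequence were not searched, and that sequence is 585 bases for H1f0, whose RefSeq transcript has 2293.

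Values below are scaled read equivalents, the deposited aligned bases divided by 42 bases per read. Unscaled depth over genes ran from 10023033 read equivalents in wild-type 73 to 18339838 in wild-type 11. Atp6ap2 itself had 2312 and 2637 in wild-types 11 and 73, against 2551 and 2522 in mutants 38 and 39, a fitted log2 fold change of 0.04 ± 0.10 (SE, n = 2 per group), so the targeted transcript did not separate the groups. That signal sums the whole transcript, including any part outside the deleted one and RNA of cells without Cre, so mutant and wild-type below mean the libraries labelled so. Hippocampal neuron markers were present in all libraries, with Prox1, a dentate granule factor, at 1513 to 1702 and Camk2a at 24467 to 27998. Choroid plexus markers split each group: their sum over 17 genes was 75490 and 7542 in wild-types 11 and 73, against 125782 and 7840 in mutants 38 and 39.

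For 6 of 6 linker histone genes both mutants lay above both wild-types, against 16.8% of the 18127 genes tested. The ratio of the mutant to the wild-type mean ran from 1.17 for H1f0 to 2.01 for Hist1h1e, with Hist1h1c (1.90) and Hist1h1d (1.76) next to Hist1h1e and Hist1h1b (1.42) and Hist1h1a (1.36) in between. The median log2 fold change was 0.66 over the members and 0.01 over all genes tested. The values chose the family, so nothing is read from that count or that median.

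Hist1h1e, which encodes H1.4, stood at 521 read equivalents in wild-type 11, 589 in wild-type 73, 1079 in mutant 38 and 1153 in mutant 39. Both mutants lay well above both wild-types, and the nearest libraries differed 1.83-fold. The log2 fold change, fitted with limma on log2(read equivalents + 1), was 1.01 ± 0.12 (SE, n = 2 per group), the largest of the 6. Before scaling, these values rested on 624, 377, 1279 and 1276 read equivalents in the same order. In tissue RNA, more expressing cells and more RNA per cell cannot be told apart.

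Hist1h1c, which encodes H1.2, had 499 and 509 in the wild-types, against 1004 and 913 in mutants 38 and 39. Its wild-type libraries were nearly equal, and its nearest libraries differed 1.79-fold. On the log2 scale the difference was 0.92 ± 0.11 (SE, n = 2 per group). The lowest of its unscaled values was 326 read equivalents, in wild-type 73.

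Hist1h1d, which encodes H1.3, had 351 and 534 in wild-types 11 and 73, against 706 and 850 in mutants 38 and 39. The groups did not overlap, but the wild-types differed from each other by more than for any other member, and the nearest libraries differed 1.32-fold. Its difference on the log2 scale was 0.84 ± 0.21 (SE, n = 2 per group). It was 0.54 without wild-type 11 and 1.14 without wild-type 73.

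**Figure D1:**
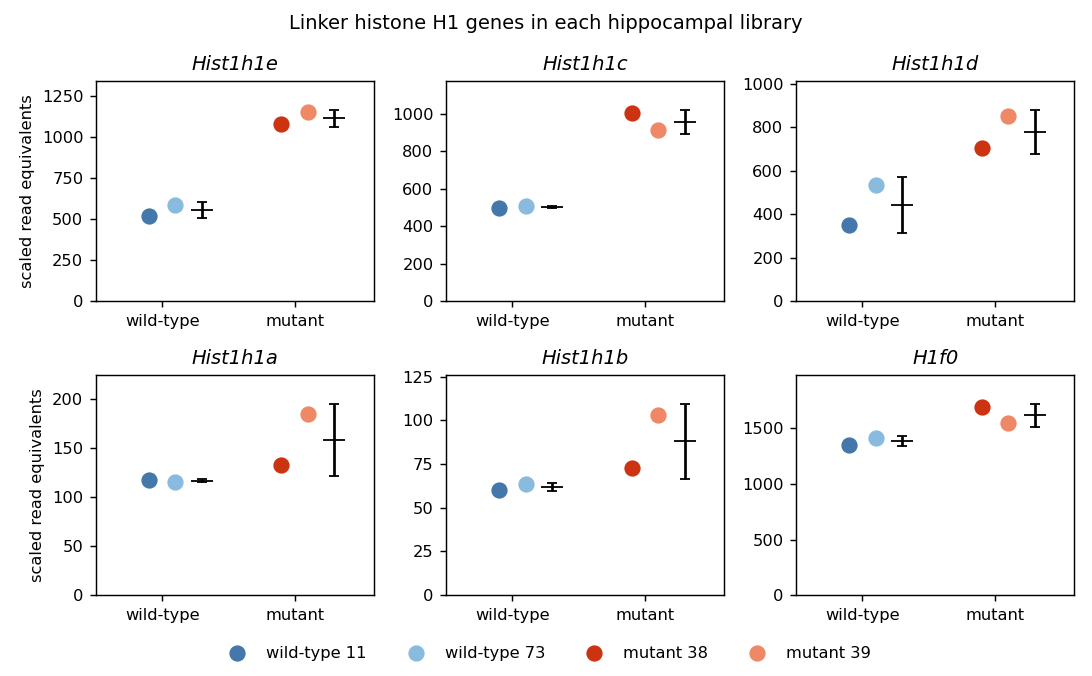
Scaled read equivalents of each linker histone gene (vertical axes, each from 0) in the 4 libraries, with the mean and SD of each group (n = 2) in black. The mutants sit 1.79-fold or more above the wild-types for Hist1h1e and Hist1h1c, and between 1.09-fold and 1.32-fold at the nearest libraries for the other members.

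Hist1h1a and Hist1h1b were the least abundant members. Hist1h1a, which encodes H1.1, had 118 and 115 in wild-types 11 and 73, against 132 and 185 in mutants 38 and 39. Hist1h1b, which encodes H1.5, had 60.1 and 63.6 in the wild-types, against 72.7 and 103 in the mutants. For both genes mutant 39 stood well above the other 3 libraries, and mutant 38 lay only 1.13-fold and 1.14-fold above the higher wild-type. The log2 fold change was 0.42 ± 0.22 for Hist1h1a and 0.48 ± 0.26 for Hist1h1b (SE, n = 2 per group). Without mutant 39 it was 0.18 and 0.23, and without mutant 38 it was 0.66 and 0.73. The wild-type 73 values rested on 74.0 and 40.8 unscaled read equivalents, the fewest among the members.

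H1f0, the member with the longest RefSeq transcript, had the highest signal before correction for length and the smallest difference. It had 1355 and 1419 in the wild-types, against 1694 and 1547 in mutants 38 and 39, so the groups were separated by 1.09-fold at the nearest libraries. On the log2 scale that was a difference of 0.22 ± 0.10 (SE, n = 2 per group).

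The members did not share a single profile over the libraries. The likeness of 2 genes was measured as the mean absolute difference of their log2 values over the 4 libraries, after centring each gene on its mean. Hist1h1a and Hist1h1b were the closest pair at 0.041, both highest in mutant 39. Hist1h1c and Hist1h1e followed at 0.095, and Hist1h1d was closer to Hist1h1e (0.15) than to Hist1h1c (0.24). H1f0 and Hist1h1e were the farthest pair at 0.39. Hist1h1a and Hist1h1b share no 42-base coding window with each other. These differences describe 4 libraries and the choice of members, and carry no test.

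**Figure D2:**
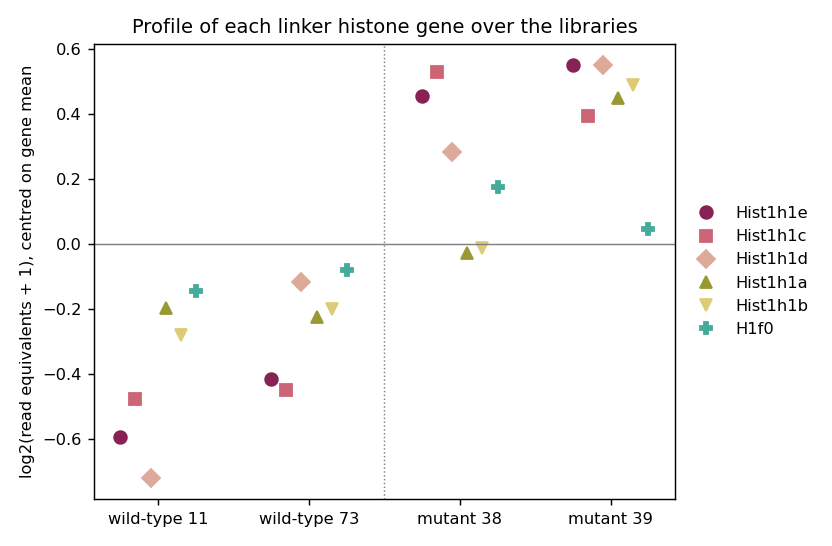
Log2(read equivalents + 1) of each linker histone gene minus its mean over the 4 libraries (vertical axis), by library. Hist1h1e and Hist1h1c lie far from 0 on both sides, Hist1h1a and Hist1h1b stand out in mutant 39, and H1f0 stays within 0.18 of 0.

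Levels of different genes were compared per kilobase of RefSeq transcript. Each member has a single exon, and the RefSeq lengths were 725 bases for Hist1h1c, 745 for Hist1h1a, 776 for Hist1h1d, 782 for Hist1h1e, 794 for Hist1h1b and 2293 for H1f0. In wild-type the order of levels was Hist1h1e (709.6 ± 61.4 read equivalents per kilobase), Hist1h1c (695 ± 10.05), H1f0 (605 ± 19.7), Hist1h1d (570.1 ± 166), Hist1h1a (157 ± 2.01) and Hist1h1b (78.0 ± 3.13; SD, n = 2 each). Hist1h1e and Hist1h1c did not differ beyond their spread, nor did H1f0 and Hist1h1d. In the mutants Hist1h1e (1427 ± 66.2) and Hist1h1c (1322 ± 88.9) again led, followed by Hist1h1d (1002 ± 131), H1f0 (706.6 ± 45.4), Hist1h1a (213 ± 49.7) and Hist1h1b (111 ± 27.2; SD, n = 2 each).

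The order depends on the transcript ends assumed. GENCODE M21 gives 1560 bases for Hist1h1c, 1930 for Hist1h1e and 7425 for Hist1h1d, with 2055 for H1f0. On those lengths H1f0 led in wild-type, with 675 read equivalents per kilobase against 323 for Hist1h1c and 287 for Hist1h1e, and Hist1h1d came last with 59.6. The authors' table names RefSeq records, and the reads were not recounted over the GENCODE transcripts. Signal and length can thus belong to different transcript ends in this second order. Which versions of the RefSeq records the authors used is not stated.

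Summed per kilobase of RefSeq transcript, the 6 members came to 2631 and 2997 in wild-types 11 and 73 and to 4682 and 4880 in mutants 38 and 39, a ratio of means of 1.70. Hist1h1c, Hist1h1d and Hist1h1e together made 68.7% and 71.5% of that sum in the wild-types and 78.5% and 78.4% in mutants 38 and 39. H1f0 made 22.5% and 20.6% in the wild-types and 15.8% and 13.8% in the mutants. On the GENCODE lengths the 3 made 41.5% and 43.01% in the wild-types and 54.1% and 53.2% in mutants 38 and 39, and H1f0 made 42.9% and 42.2%, against 34.4% and 30.9%. Without length correction the sum of the 3 was 1371 and 1632 in the wild-types, against 2789 and 2915 in the mutants, 1.71-fold apart at the nearest libraries.

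**Figure D3:**
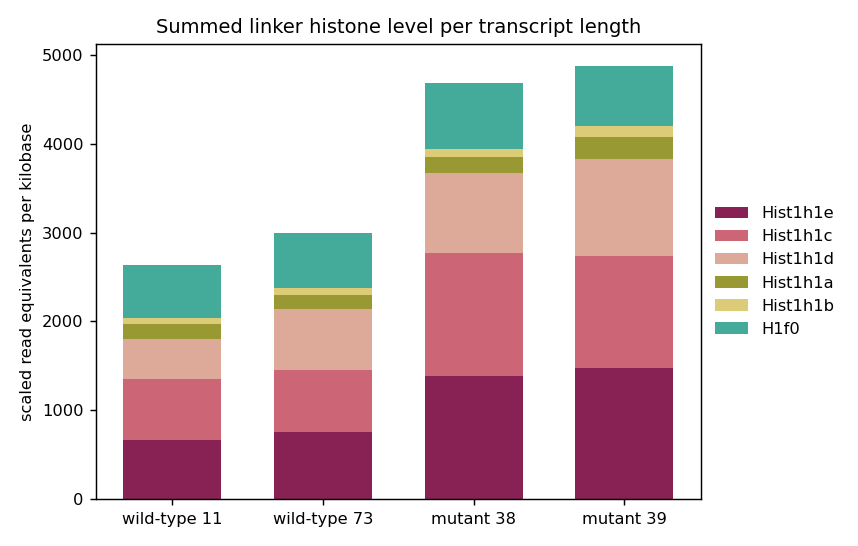
Stacked levels of the linker histone genes in scaled read equivalents per kilobase of RefSeq transcript (vertical axis from 0), by library. The sum is 2631 and 2997 in the wild-types, against 4682 and 4880 in the mutants, and on these RefSeq lengths Hist1h1c, Hist1h1d and Hist1h1e take 68.7% to 78.5% of it.

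Linker histone genes outside the set had little signal or overlapped between groups. For H1fx, which encodes the replication-independent variant H1X, wild-types 11 and 73 held 162 and 231 read equivalents, and mutants 38 and 39 held 171 and 220. The fitted difference of H1fx on the log2 scale was 0.0041 ± 0.23 (SE, n = 2 per group; limma adjusted p = 0.999). The germ-line genes Hist1h1t, H1foo, H1fnt and Hils1 had at most 2.13 in any library, and Hils1 was listed at 0 in all 4. Hist1h1t lies in the same cluster as the 5 clustered members.

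Core histone genes encode the proteins of the nucleosome itself, and those of the Hist1 cluster lie among the linker histone genes. In the limma fit across all genes, at a Benjamini-Hochberg adjusted p of 0.05, 1 gene, Apold1, passed as higher (0.00552% of those tested) and 0 as lower, and 3.94% had an unadjusted p under 0.05. Of 59 clustered core histone genes tested, 0 rose and 0 fell (1 had an unadjusted p under 0.05), 11 were higher and 7 lower in both mutants (16.8% and 16.5% of all genes), and the median log2 fold change was 0.02. The 45 tested in the Hist1 cluster had a median of -0.11, with 4 higher and 6 lower in both mutants, and a range from -0.72 for Hist1h2bf to 0.66 for Hist1h3a. The 14 of the Hist2, Hist3 and Hist4 loci had a median of 0.20, with 7 higher and 1 lower in both mutants, against the same 16.8% and 16.5%. Of those with the smallest p-values, Hist3h2ba had 0.42 ± 0.16, Hist2h2aa1 had 0.24 ± 0.11 and Hist2h2aa2 had 0.24 ± 0.11 (SE, n = 2 per group; limma adjusted p = 0.989 each). The last 2 are near-identical copies with nearly the same values. Both count among the 7 higher genes of the Hist2, Hist3 and Hist4 loci, and core histone genes are uncertain gene by gene. The most abundant, Hist1h4j, Hist1h3h and Hist1h4m, had -0.40 ± 0.22, 0.01 ± 0.14 and -0.41 ± 0.28 (SE, n = 2 per group), and their groups overlapped.

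The direct neighbours of the members on the chromosome were also read, by RefSeq gene order. Hist1h1e lies between Hist1h2be, with a log2 fold change of -0.20 ± 0.27, and Hist1h2ac, with -0.15 ± 0.25. Hist1h1c lies between the iron regulator gene Hfe, with 0.21 ± 0.31, and Hist1h3c, with -0.51 ± 0.65 at 6.75 read equivalents or fewer in each library. Hist1h1d lies between Hist1h4f, with -0.32 ± 0.40, and Hist1h3e, with 0.10 ± 0.22 (SE, n = 2 per group). The groups overlapped for these neighbours, except that Hist1h2ac was lower in both mutants (53.1 and 58.4 against 65.2 and 59.2). Hist1h3a, beside Hist1h1a, had 16.7 and 12.9 in wild-types 11 and 73, against 25.2 and 22.6 in mutants 38 and 39 (0.66 ± 0.37 SE), a log2 fold change above those of Hist1h1a, Hist1h1b and H1f0. Triobp, which encodes an actin-binding protein and lies beside H1f0, had 120.3 and 121 in the wild-types, against 176 and 133 in the mutants (0.34 ± 0.21 SE). Hist1h2bn, beside Hist1h1b, was lower in both mutants (-0.37 ± 0.19 SE). Of the 11 neighbours of all 6 members that could be tested, these 2 were higher and Hist1h2ac and Hist1h2bn lower in both mutants, against 16.8% and 16.5% of all genes, with a median of -0.05.

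**Figure D4:**
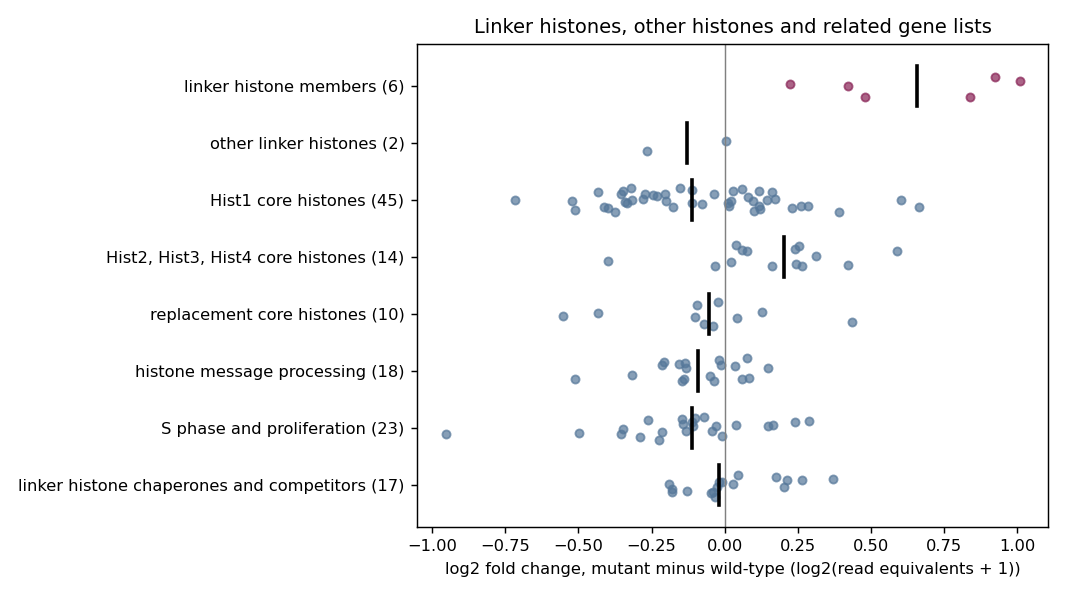
Log2 fold change of single genes, mutant minus wild-type (horizontal axis), for the linker histone genes and for related gene lists, with the number of genes tested in brackets and the list's median as a black bar. The 6 linker histone genes run from 0.22 to 1.01, and single genes of the other lists run from -0.95 for Tk1 to 0.66 for Hist1h3a, which overlaps that range.

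Replacement core histones, which can be made outside S phase, went both ways. Of 10 genes, 0 rose and 0 fell in the limma fit (H3f3b alone had an unadjusted p under 0.05), and the median log2 fold change was -0.05. In both mutants 2 were higher and 3 lower, against 16.8% and 16.5% of all genes. H3f3b, which encodes histone H3.3, had 1186 and 1050 in wild-types 11 and 73, against 1570 and 1449 in mutants 38 and 39 (0.43 ± 0.11 SE). H2afx, which encodes the variant that is phosphorylated at DNA breaks, had 335 and 303 in the wild-types, against 202 and 274 in the mutants (-0.43 ± 0.18 SE; limma adjusted p = 0.989 for both).

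Genes that process histone messages include the cleavage factors Lsm10, Sympk and Casp8ap2. Of 18 tested, 0 rose and 0 fell in limma (0 at an unadjusted p under 0.05), 2 were higher and 7 lower in both mutants (against 16.8% and 16.5% of all genes), and the median was -0.09. Lsm10, a protein of the U7 particle that cuts histone messages, had -0.51 ± 0.25, Sympk had -0.21 ± 0.10 and Casp8ap2 had -0.22 ± 0.13 (SE, n = 2 per group; limma adjusted p = 0.989 each). S phase and proliferation genes, 23 in number, also had 0 passing in either direction in limma (1, Tk1, at an unadjusted p under 0.05), with 2 higher and 8 lower in both mutants (against the same 16.8% and 16.5%) and a median of -0.11. That median was 0.01 without wild-type 11. The thymidine kinase gene Tk1 had 21.8 and 21.5 in wild-types 11 and 73, against 12.7 and 8.97 in mutants 38 and 39, and the helicase subunit gene Mcm6 had 336 and 316 against 284 and 248.

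Linker histone chaperones and proteins that compete with H1 for the nucleosome gave a median of -0.02 over 17 genes, with 0 passing in limma (0 at an unadjusted p under 0.05). In both mutants 2 were higher and 2 lower, against 16.8% and 16.5% of all genes. Hmgb1, which encodes a chromatin protein that competes with H1, had 0.37 ± 0.21. Set and Nasp, which encode histone chaperones, had -0.19 ± 0.11 and -0.18 ± 0.14 (SE, n = 2 per group; limma adjusted p = 0.989 each).

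Markers of some other cell types were higher in the same libraries as the linker histone genes. Of 15 myelinating oligodendrocyte markers, 13 were higher in both mutants, against 16.8% of all genes. In limma 0 rose and 0 fell, and 10 had an unadjusted p under 0.05 as higher, against 3.94% of all genes in either direction. Markers of the same cell type can vary together, so these counts are not of separate observations. The median log2 fold change of the 15 markers was 0.46. Their summed signal was 94641 and 68111 in wild-types 11 and 73, against 116824 and 103116 in mutants 38 and 39. The wild-type sums lay further apart than those of wild-type 11 and mutant 39. Of 8 red blood cell genes, 6 were higher in both mutants, against 16.8% of all genes. In limma 0 rose and 0 fell, and 4 had an unadjusted p under 0.05 as higher, against 3.94% of all genes in either direction. The sums were 5939 to 8619 in wild-type and 9134 to 10834 in the mutants. Hba-a1 and Hba-a2 carry nearly the same values, as do Hbb-b1 and Hbb-bs, and Hbb-b2 and Hbb-bt carry the same ones. These counts and sums therefore hold some signals more than once. None of these markers was at 0 in all libraries, and their part in the linker histone values was not tested. Choroid plexus sums overlapped between the groups, since each group held a high and a low library. With the mean log2 level of the choroid plexus markers in the model, the log2 fold changes ran from 0.22 for H1f0 to 1.02 for Hist1h1e. A level so evenly split over the groups can hardly move a difference between them, so nothing is read from that fit. Among hippocampal neuron genes, 4 of 12 lay lower in both mutants and 0 lay higher, against 16.5% and 16.8% of all genes. Fibcd1, a marker of CA1 pyramidal neurons, had 2243 and 2299 in wild-types 11 and 73, against 1392 and 1600.3 in mutants 38 and 39, and C1ql2, a marker of dentate granule cells, had 1250.04 and 1493 against 1055 and 1124. These were differences of -0.60 ± 0.11 and -0.33 ± 0.12 on the log2 scale (SE, n = 2 per group; limma adjusted p = 0.42 and 0.989). Fibcd1 and C1ql2 are named because their p-values were the smallest of the list, and 8 of the 12 genes overlapped between the groups. Of those 8, Wfs1 had 1631 and 1786 in wild-types 11 and 73, against 1069 and 2885 in mutants 38 and 39. Prox1 had 1609 and 1702 in the wild-types, against 1678 and 1513 in the mutants.

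The genes whose profile over the 4 libraries was most like Hist1h1c, among 11669 other genes with a mean of at least 100 read equivalents, were Arl4d, Csrnp1, Id1, Dusp1 and Sgk1, at mean absolute log2 differences of 0.026 to 0.066. Those most like Hist1h1e were Arl4d, Grm4, Arrdc2, Nfkbia and Sgk1, at 0.092 to 0.12. Arl4d, which encodes a small GTPase, had 232 and 237 in wild-types 11 and 73, against 483 and 442 in mutants 38 and 39. Sgk1, a kinase gene induced by glucocorticoids, had 2528 and 2803 in the wild-types, against 5503 and 4523 in the mutants. Arl4d and Sgk1 were in both lists. Likeness over 4 libraries finds any gene that differed between the groups by a similar amount, so it is a description of values alone.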

How the data were processed

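RNA of 2 mutant and 2 wild-type hippocampal libraries was analysed. The submitters' processing notes name GSNAP, DESeq2 and the build mm9. The read counter is not given in the sources used here. The authors deposited signal, aligned bases per transcript record divided by a scaling factor per library. In every library 100% of values were whole multiples of 1 step, to a tolerance of 0.05 steps, and 661 to 810 records stood at 42 steps against at most 20 at 41 or 43, so 1 read was taken as 42 bases. The deposited p-value column was not used. Values were divided by 42, and the record with the highest mean was kept per gene. Genes that reached 1 read equivalent in 2 libraries or more were fitted on log2(read equivalents + 1) with limma 3.58.1 (R 4.3.3, variance trend, two-sided moderated test, Benjamini-Hochberg at 0.05 over 18127 genes). The fit was also run on simulated data with independent noise per gene. Those data lack variation shared across genes, such as the choroid plexus split, so nothing is read from that run. The scale understates changes of genes with few reads. Depth is given as unscaled read equivalents; libraries differed beyond sampling noise (chi-square per degree of freedom 8.66 to 19.4). Sequences came from RefSeq GRCm38.p6 and GENCODE M21, aligned with Biopython 1.88 in Python 3.11.15; plots used matplotlib 3.10.9. The members and all gene lists were chosen with earlier results of these data known. Named genes were the members, up to 3 genes per list with the smallest p-values, the 3 most abundant core histone genes, the 5 genes most like Hist1h1e and Hist1h1c, and Atp6ap2; neighbours were taken by position. Some of these are not printed. The 13 alternatives changed the pseudocount, filter, scaling, variance prior, records, covariate and libraries.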

Additional observations from a re-analysis of the deposited data

How the results depend on the processing

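No paired analysis was possible because the replicate numbers in the labels are not shared between the groups. Leaving out each library in turn gave log2 fold changes of 0.92 to 1.10 for Hist1h1e, 0.86 to 0.99 for Hist1h1c, 0.54 to 1.14 for Hist1h1d, 0.18 to 0.66 for Hist1h1a, 0.23 to 0.73 for Hist1h1b and 0.16 to 0.29 for H1f0; where groups do not overlap, leaving out a library cannot turn the direction. Over all genes, 8 higher and 4 lower passed with the robust prior and 74 higher and 39 lower with the choroid plexus covariate, which leaves 1 residual degree of freedom; leaving out a library gave 1 to 23 higher and 0 to 14 lower, the most without wild-type 11. The cause was not tested. A group left with 1 library was assumed to vary like the other group. The median over the members was 0.49 to 0.79 with a library left out. With 2 libraries a group, spreads are poorly known.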
